A study of Mus musculus with 64 samples.

Results

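The genes described here are 9 components of adrenergic and cyclic AMP (cAMP) signalling in the mouse heart: the receptors Adrb1, Adra1a and Adra1b, the adenylyl cyclases Adcy5 and Adcy6, the phosphodiesterases Pde3a and Pde4d, the receptor kinase Grk5 and the phosphatase inhibitor Ppp1r1a. They were chosen by name with earlier results of these data known, and all 9 were among the 16913 genes of the deposited count table. Hearts of C57BL/6J mice were profiled by bulk sequencing of ribosome-depleted total RNA in 64 libraries. The transgenic mice (TG) carry cTnT-delta160E, a mutant cardiac troponin T, and their controls are non-transgenic (nTG). Trained mice ran high-intensity interval training (HIIT) on a treadmill for 6 weeks, in 3 sessions of 31 minutes a week, and sedentary mice (Sed) did not exercise. A session held 4 high-intensity intervals at 85% and 4 low-intensity intervals at 50% intensity. The 8 groups were sedentary nTG males (n = 7), trained nTG males (n = 8), sedentary TG males (n = 9), trained TG males (n = 8), sedentary nTG females (n = 8), trained nTG females (n = 10), sedentary TG females (n = 8) and trained TG females (n = 6). The series description gives 7 to 9 samples a group, whereas the sample labels used here give 6 to 10. The labels give no age, founder line or promoter for the transgene.

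In heart muscle, noradrenaline and adrenaline act on adrenergic receptors. The beta-1 receptor couples through the stimulatory G protein to adenylyl cyclase, and the cAMP it makes activates protein kinase A (PKA), which phosphorylates calcium channels, phospholamban and sarcomere proteins and so speeds and strengthens the beat. Alpha-1 receptors couple instead to phospholipase C. Phosphodiesterases break cAMP down in separate compartments of the cell, receptor kinases switch the receptors off, and protein phosphatase 1 removes the phosphates that PKA adds.

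The columns of the gene table go against their labels when they are read by library name. By name, 32 of 64 libraries contradicted their labelled sex, 30 their labelled genotype by Tnnt2, and 45 at least one of these. The deposited table of long non-coding RNAs has a column for each library too, and each library was given the gene column with the highest correlation to that one. This joined 64 different columns, each the best match in both directions, with r from 0.599 to 0.863 against at most 0.404 for the next best column, and no library then contradicted its sex or genotype. Tnnt2, the gene of the transgene's product, was at 2561 to 3589 CPM (the counts of a gene per 1e6 counts of its library, scaled by TMM) in nTG and 6538 to 11720 CPM in TG libraries, so the genotypes did not overlap. No gene was used to check the training label. Values below use the joined columns. With columns read by name, no member passed the genotype test in any stratum or in their average. Gene totals were 34.6 to 67.1 M counts per library (M is 1e6; median 48 M). Cardiomyocyte markers were present in every library, at a summed 48470 to 69890 CPM.

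By Ensembl identifier and by position in GRCm38 (GENCODE M21), the receptor genes were Adrb1 (ENSMUSG00000035283, chr19:56722199-56733113, plus strand), Adra1a (ENSMUSG00000045875, chr14:66635251-66771168, plus strand) and Adra1b (ENSMUSG00000050541, chr11:43774606-43901210, minus strand). The cyclases were Adcy5 (ENSMUSG00000022840, chr16:35154877-35305738, plus strand) and Adcy6 (ENSMUSG00000022994, chr15:98589973-98610076, minus strand). The phosphodiesterases were Pde3a (ENSMUSG00000041741, chr6:141249269-141507448, plus strand) and Pde4d (ENSMUSG00000021699, chr13:108449948-109953461, plus strand). Grk5 (ENSMUSG00000003228) lies at chr19:60889749-61095968 on the plus strand, and Ppp1r1a (ENSMUSG00000022490) at chr15:103530279-103538003 on the minus strand. All 9 are protein-coding, and counts were taken over whole genes. Exons of Adcy6 share 605 bases with Gm29331 and exons of Pde3a share 741 bases with Gm28523, each on the opposite strand. Whether the counting used strand is not given in the sources used here, so reads of these pairs may not be separated. Gm29331 averaged 190 counts per library against 14358 for Adcy6, and Gm28523 averaged 53.6 against 8585 for Pde3a.

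RefSeq promoters (GRCm38.p6, 250 bases before to 50 after a start) were matched for 5 of the 9 genes, 6 promoters in all. They are shown because cAMP also acts on transcription, through CREB proteins that bind the cAMP response element TGACGTCA or its shorter core TGACG. The full element was in none of the 6 on either strand, and in 1.79% of 32851 mouse promoters of that length. The core, which the full element contains, was found once, in Adrb1, and in 20.8% of all promoters. It is printed in capitals and lies at -90 to -86 from the start, in chr19:56721992-56722066 on the plus strand:
Adrb1: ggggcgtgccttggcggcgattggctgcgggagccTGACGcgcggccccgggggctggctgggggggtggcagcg
The next 3 windows hold the 100 bases before a start, for Adcy5, the gene that passed the test under training, and for both starts listed for Adra1b, one of the genes with the largest genotype difference. They lie at chr16:35154764-35154863 on the plus strand, and at chr11:43901238-43901337 and chr11:43836490-43836589 on the minus strand. Capitals mark the GC box GGGCGG, searched on both strands, which overlaps neither CREB motif and was in 24.7% of all promoters over the same 100 bases.
Adcy5: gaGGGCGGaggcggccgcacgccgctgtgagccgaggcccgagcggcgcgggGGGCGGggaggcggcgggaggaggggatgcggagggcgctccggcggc
Adra1b, upstream start: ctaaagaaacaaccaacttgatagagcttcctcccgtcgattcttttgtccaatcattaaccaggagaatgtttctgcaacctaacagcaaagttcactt
Adra1b, downstream start: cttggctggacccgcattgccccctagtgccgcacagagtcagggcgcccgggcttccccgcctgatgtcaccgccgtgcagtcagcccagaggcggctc
The Adcy5 window held 2 GC boxes and was 85.0% G and C. The Adra1b windows held none and differed in base content, at 40% for the upstream start and 71.0% for the downstream start, against a median of 55% over all promoters. These are matches of letters and show no binding.

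The levels of the 9 genes spanned a wide range. Levels are given per kilobase of exon, with all annotated exons of a gene counted, whether or not the heart uses them. The order of the genes therefore depends on annotation as well as on expression. On this scale Adcy6 was highest (median 43.5 CPM per kb over 64 libraries), followed by Adcy5 (24.2). Pde3a and Adrb1 were close to each other at 13.6 CPM per kb. Grk5 (10.8), Adra1b (9.91) and Adra1a (5.25) were lower, and Pde4d was at 3.50. Before division by length, Adra1a (median 45.8 CPM) was above Adra1b (33.5 CPM) and close to Adrb1 (45.9 CPM). The exon lengths were 8728 bases for Adra1a and 3382 for each of the others. Ppp1r1a was near the floor of the table at 0.404 CPM per kb, with 8 to 47 counts in a library. Between its lowest and highest library a gene varied 1.57-fold (Adcy6) to 2.59-fold (Adra1a), with Ppp1r1a at 4.71-fold. Spread within groups was smallest for Adcy6 (coefficient of variation 7.5%) and largest for Ppp1r1a (29.6%).

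**Figure D1:**
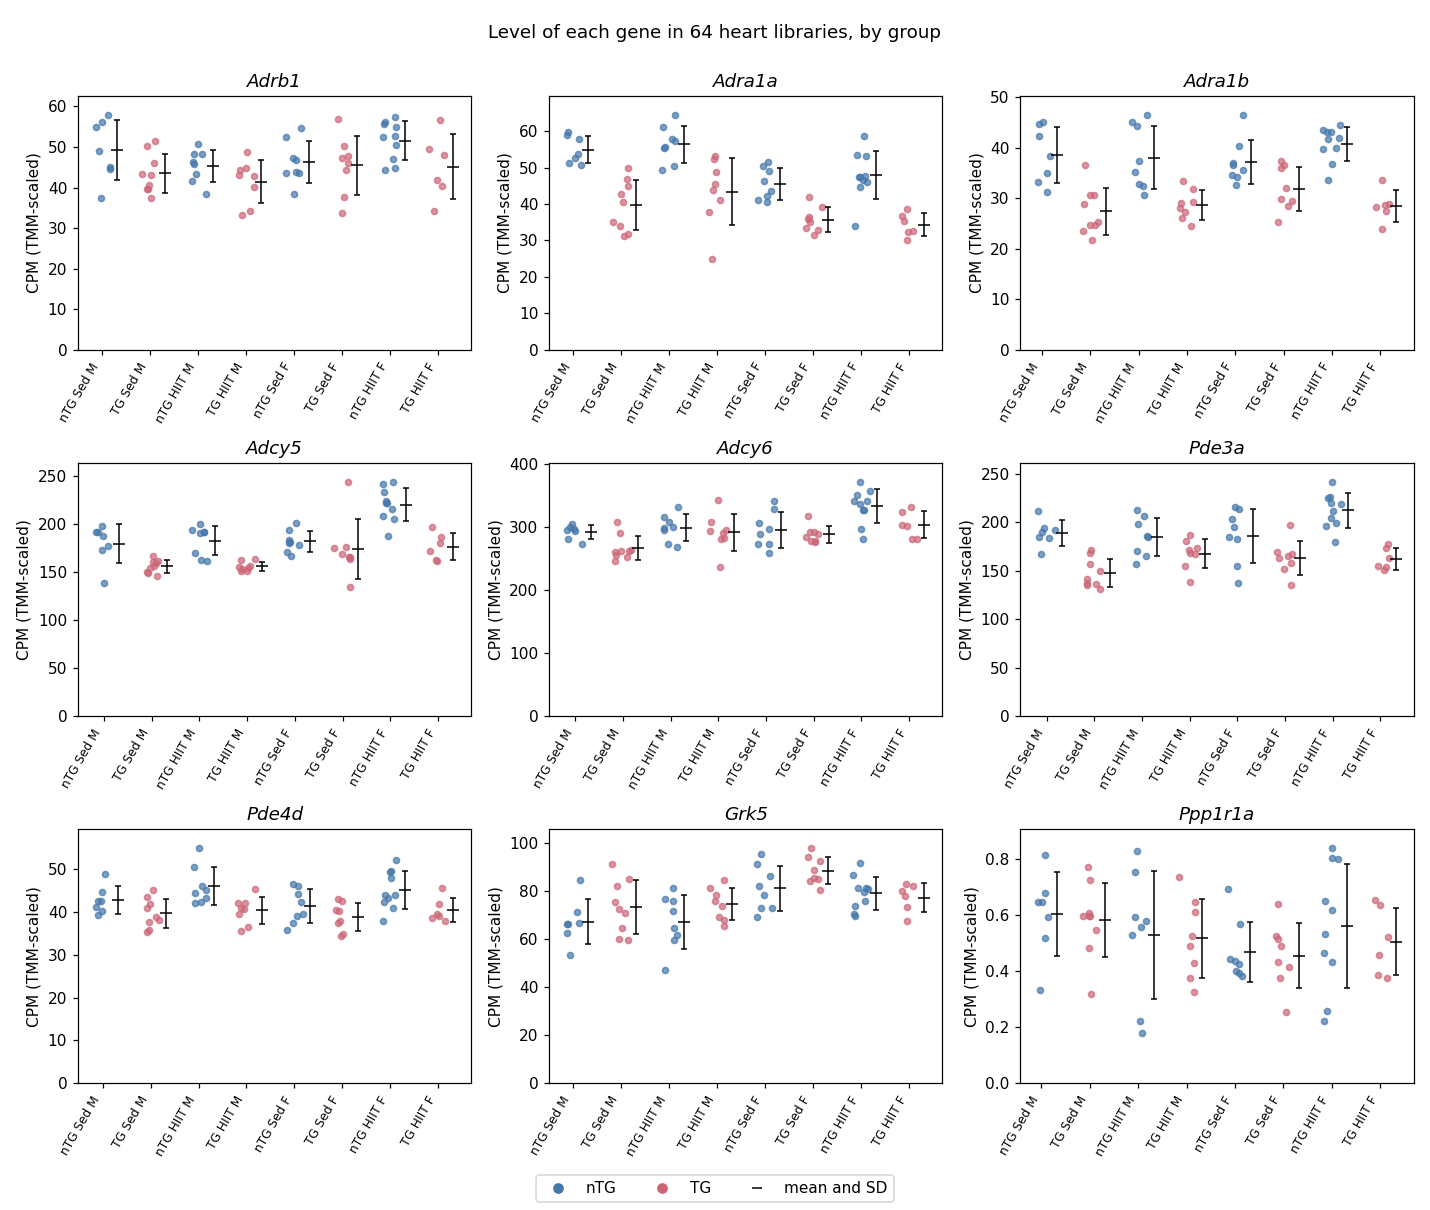
Level of each of the 9 genes in 64 heart libraries (vertical axes: CPM scaled by TMM, starting at 0), in the 8 groups along the horizontal axis. Points are libraries, blue for nTG and red for TG, and black marks are the group mean with its SD. Adra1a and Adra1b sit lower in TG than in nTG in each sex and training state, and Adcy5 is highest in trained nTG females (188 to 244 CPM).

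The first comparison was that of TG with nTG hearts within each sex and training state. Lower expression in TG hearts was the direction of every member that passed the test. In sedentary males 4 of 9 members were lower (Adra1a, Adra1b, Adcy5, Pde3a), where 11.2% of all genes were called lower and 9.39% higher. In trained males 4 of 9 were lower (Adra1a, Adra1b, Adcy5, Pde4d; all genes 8.31% lower, 5.65% higher). In sedentary females it was Adra1a alone (all genes 2.78% lower, 1.58% higher), and in trained females Adra1a, Adra1b, Adcy5 and Pde3a (all genes 9.43% lower, 5.37% higher). Averaged over the 4 strata, 7 of 9 were lower and Grk5 and Ppp1r1a were not called, beside 20.5% of all genes lower and 18.5% higher. The median log2 fold change of the 9 genes was -0.18 and -0.14 in sedentary and trained males, -0.06 and -0.19 in sedentary and trained females, and -0.14 in the average, while the median over all genes was between -0.01 and 0.01 in each. Over all genes, 4.19% were called lower in at least 3 of the 4 strata and 1.68% in all 4.

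Adra1a, the alpha-1A receptor, was the member called lower in all 4 strata. In sedentary males its lowest, median and highest library were 50.7, 53.6 and 59.6 CPM in nTG and 31.3, 40.6 and 49.9 CPM in TG hearts. In trained males they were 49.4, 56.5 and 64.5 CPM in nTG and 24.9, 44.6 and 53.1 CPM in TG. All 9 sedentary TG males thus lay below every sedentary nTG male, and 6 of 8 trained TG males lay below every trained nTG male. In sedentary females the values were 40.5, 45 and 51.4 CPM against 31.6, 35.4 and 41.8 CPM, and in trained females 34, 47.4 and 58.6 CPM against 30.2, 34 and 38.7 CPM. Here 7 of 8 sedentary TG females and 3 of 6 trained TG females lay below all their nTG controls, so the female groups overlapped at their edges. Adra1a fell by 27.7% in sedentary males (log2 fold change -0.47 ± 0.10 SE, adjusted p = 0.000229, edgeR quasi-likelihood test with Benjamini-Hochberg adjustment, as for every adjusted p here) and by 23.1% in trained males (-0.38 ± 0.10, adjusted p = 0.00399). It fell by 21.6% in sedentary females (-0.35 ± 0.10, adjusted p = 0.0196) and by 28.3% in trained females (-0.48 ± 0.10, adjusted p = 0.000502).

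Adra1b, the alpha-1B receptor, was called lower in 3 strata. Sedentary males had 31.2, 38.4 and 45 CPM in nTG (lowest, median, highest) and 21.7, 25.3 and 36.6 CPM in TG hearts, and trained males 30.7, 36.3 and 46.4 CPM against 24.4, 28.6 and 33.4 CPM. Trained females had 33.6, 41.9 and 44.5 CPM in nTG and 23.9, 28.4 and 33.6 CPM in TG. TG libraries below all their controls numbered 8 of 9, 6 of 8 and 5 of 6 in these strata, so the groups overlapped by 1 or 2 TG libraries each. The gene fell by 29.1% in sedentary males (log2 fold change -0.50 ± 0.09, adjusted p = 5.87e-05), by 24.6% in trained males (-0.41 ± 0.09, adjusted p = 0.00125) and by 30.3% in trained females (-0.52 ± 0.10, adjusted p = 9.53e-05). In sedentary females it was at 32.6, 36.2 and 46.5 CPM in nTG and 25.3, 30.9 and 37.3 CPM in TG, a difference that missed the threshold (-0.22 ± 0.09, adjusted p = 0.169). The alpha-1A and alpha-1B genes had almost equal averages over the strata, -0.42 ± 0.05 (adjusted p = 1.41e-10) and -0.41 ± 0.05 (adjusted p = 7.13e-11).

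Adrb1, the main beta receptor of the heart muscle cell, differed less. Its group medians ran from 43 CPM in trained TG males to 52.6 CPM in trained nTG females, and every pair of neighbours in the order of medians overlapped. The log2 fold changes in TG were -0.18 ± 0.09 (adjusted p = 0.155) and -0.13 ± 0.09 (adjusted p = 0.371) in sedentary and trained males, and -0.03 ± 0.09 (adjusted p = 0.934) and -0.19 ± 0.09 (adjusted p = 0.158) in sedentary and trained females. No stratum passed by itself, and the average did (-0.13 ± 0.05, adjusted p = 0.0165), where the gene fell by 8.73%.

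Adcy5, one of the cyclases that make cAMP in the heart, was called lower in 3 strata. In sedentary males it was at 139, 187 and 198 CPM in nTG (lowest, median, highest) and 146, 156 and 167 CPM in TG, and in trained males at 162, 191 and 201 CPM against 151, 155 and 164 CPM. The TG males formed narrow bands near the bottom of the nTG range: all 17 lay below the median of their controls, and the sedentary groups overlapped through 1 low nTG library (replicate 6). In trained females the gene was at 188, 222 and 244 CPM in nTG and 162, 176 and 197 CPM in TG, where 5 of 6 TG libraries lay below every control. The log2 fold changes were -0.20 ± 0.06 (adjusted p = 0.0188), -0.23 ± 0.06 (adjusted p = 0.0108) and -0.32 ± 0.07 (adjusted p = 0.000588). The call in sedentary males was lost without replicate 5 of sedentary nTG males (-0.17, adjusted p = 0.0687). In sedentary females the values were 167, 181 and 201 CPM in nTG and 135, 168 and 244 CPM in TG, not past the threshold (-0.06 ± 0.06, adjusted p = 0.702). That group holds 1 high library, replicate 4 at 244 CPM, without which the difference was -0.15 (adjusted p = 0.133).

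Adcy6, the more abundant of the 2 cyclases, had log2 fold changes in TG of -0.13 ± 0.05 in sedentary males (adjusted p = 0.0787), -0.04 ± 0.05 in trained males (adjusted p = 0.714), -0.04 ± 0.05 in sedentary females (adjusted p = 0.821) and -0.13 ± 0.06 in trained females (adjusted p = 0.0971). In sedentary males it was at 274, 296 and 305 CPM in nTG and 246, 262 and 308 CPM in TG. There 7 of 9 TG libraries lay below all controls and 1 above them all. That stratum passed the threshold without replicate 7 or replicate 8 of sedentary TG males (adjusted p = 0.0474 and 0.0278), and trained females passed without replicate 2 of trained nTG females (adjusted p = 0.0434). The average over strata passed (-0.08 ± 0.03, adjusted p = 0.0106), where the gene fell by 5.71%.

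Pde3a, which hydrolyses cAMP and is inhibited by cGMP, was called lower in 2 strata. Sedentary males had 167, 190 and 211 CPM in nTG (lowest, median, highest) and 132, 142 and 171 CPM in TG, with 7 of 9 TG libraries below all controls. Trained females had 180, 215 and 242 CPM in nTG and 151, 159 and 178 CPM in TG, and these groups did not overlap. Pde3a fell by 21.9% in sedentary males (log2 fold change -0.36 ± 0.07, adjusted p = 0.000209) and fell by 23.4% in trained females (-0.39 ± 0.07, adjusted p = 0.000207). Differences in trained males (-0.14 ± 0.07, adjusted p = 0.187) and sedentary females (-0.18 ± 0.07, adjusted p = 0.145) missed the threshold. Sedentary females passed without replicate 1 of sedentary nTG females (-0.23, adjusted p = 0.0317), which raised the members called in that stratum from 1 to 2. The average was -0.27 ± 0.04 (adjusted p = 1.43e-08).

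Pde4d, of the cAMP-specific family, showed smaller differences. Trained males had 42.2, 44.7 and 54.9 CPM in nTG and 35.6, 40.8 and 45.5 CPM in TG hearts, and 6 of 8 TG libraries lay below every control. The log2 fold change was -0.19 ± 0.06 (adjusted p = 0.0280), and it lost the threshold without replicate 4 or 5 of trained TG males or replicate 6 or 8 of trained nTG males (adjusted p up to 0.0941). The other strata were -0.11 ± 0.06 in sedentary males (adjusted p = 0.224), -0.09 ± 0.06 in sedentary females (adjusted p = 0.531) and -0.16 ± 0.06 in trained females (adjusted p = 0.0839). Trained females passed without replicate 7 of trained nTG females (adjusted p = 0.0410). The average was -0.14 ± 0.03 (adjusted p = 0.000308).

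Grk5, a kinase that desensitises adrenergic receptors, was the member with values above 0 in 3 of 4 strata. Its medians in TG and nTG were 72.4 and 66.1 CPM in sedentary males, 74.8 and 68.1 CPM in trained males, 87.1 and 80.3 CPM in sedentary females, and 79.0 and 80.2 CPM in trained females. All of these pairs overlapped and no stratum was called (log2 fold changes 0.13 ± 0.08, 0.15 ± 0.08, 0.13 ± 0.08 and -0.03 ± 0.09). The average was 0.09 ± 0.04 with an adjusted p of 0.0712. It passed in 8 of the 64 fits made without a single library, and those 64 fits called 6297 to 6763 genes each. Grk5 also passed with DESeq2 (adjusted p = 0.0468, beside 39.2% of genes called) and among genes with a mean of at least 50 counts (adjusted p = 0.0316, beside 45.6%). These shares of all genes are large, so a pass near the threshold does not set Grk5 apart.

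Ppp1r1a, inhibitor 1 of protein phosphatase 1, had few counts, 8 to 47 per library, and its changes were not bounded closely. Its group medians were 0.430 to 0.645 CPM, all groups overlapped, and the 95% interval of its log2 fold change in sedentary males ran from -0.50 to 0.41. The average was -0.07 ± 0.12 (adjusted p = 0.668), with a standard error larger than the difference.

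**Figure D2:**
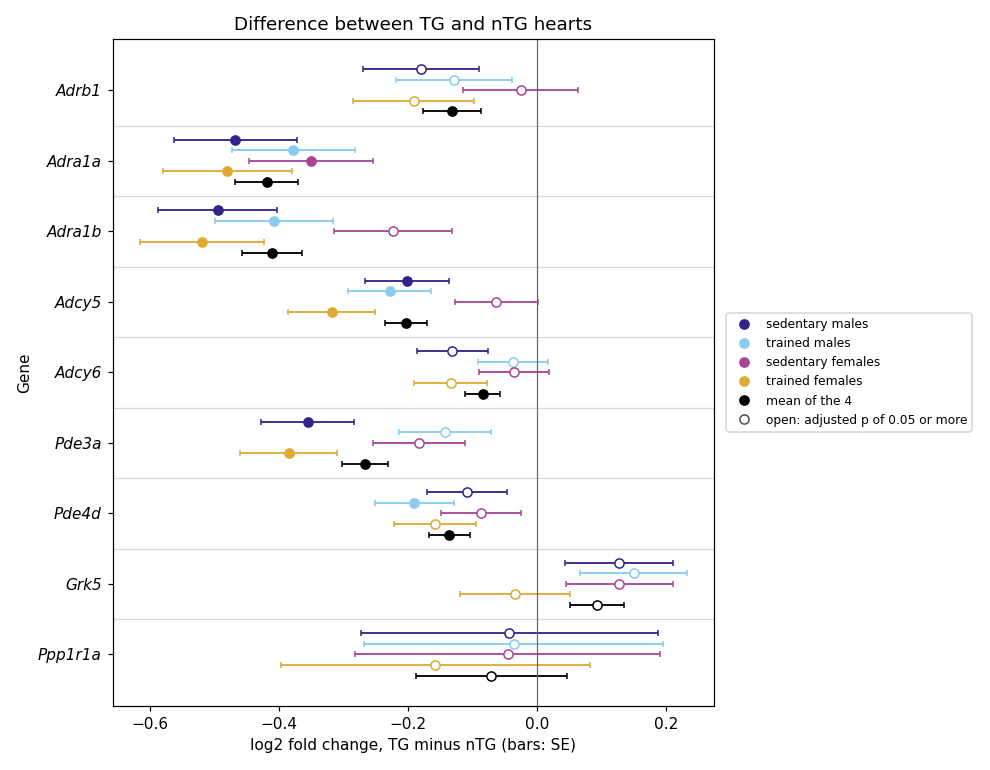
Log2 fold change between TG and nTG hearts (horizontal axis, TG minus nTG, bars are SE) for the 9 genes in the 4 strata and in their average. Filled points passed an adjusted p under 0.05. The alpha-1 receptors lie furthest left at averages of -0.42 and -0.41, and Grk5 is the gene right of 0, at 0.09.

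Markers of other cell types moved with the genotype too. Averaged over strata, 7 of 7 fibroblast markers (median log2 fold change 0.41) and 7 of 7 macrophage markers (0.42) were higher in TG hearts, and 6 of 7 cardiomyocyte markers were lower (median -0.11). The summed fibroblast markers ran from 742 to 992, 636 to 875, 863 to 1464 and 726 to 978 CPM in nTG and from 829 to 1441, 792 to 1783, 1017 to 1344 and 1003 to 1278 CPM in TG libraries, in the order males sedentary and trained, then females sedentary and trained. In the same order the summed macrophage markers were 140 to 188, 129 to 179, 170 to 258 and 152 to 212 CPM in nTG and 183 to 316, 178 to 314, 174 to 264 and 196 to 298 CPM in TG. The summed cardiomyocyte markers were 58270 to 69530, 58990 to 69890, 57010 to 67640 and 60890 to 69810 CPM in nTG and 52100 to 61570, 48470 to 64190, 54900 to 62450 and 55630 to 62330 CPM in TG. No marker of these lists was at 0 in all libraries. Their part in the differences of the 9 genes was not tested, and in bulk tissue fewer cells of a type and less RNA per cell cannot be told apart. Of the other lists, endothelial markers had 0 higher and 2 lower of 7, pericyte and smooth muscle markers 0 and 1 of 7, and blood markers 0 and 3 of 6. Nerve and glia markers had 0 higher and 1 lower of 4 (Dbh), lymphocyte and adipocyte markers had no call among 4 and 3, atrial markers had 1 higher (Nppa) of 4, and skeletal muscle markers had 1 higher and 1 lower of 2.

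The second comparison was that of trained with sedentary hearts. It shares its libraries with the genotype comparison: the sedentary TG males, for example, enter both. In nTG males no member was called, and none of the 16913 genes was (0.00%; edgeR; 999 genes and 0 members had an unadjusted p under 0.05, and DESeq2 called 4 genes and 0 members). In TG females no member was called either, nor any gene (0.00%; edgeR; 606 genes and 1 member, Grk5, had an unadjusted p under 0.05, and DESeq2 called 0 genes). In TG males, where 10.3% of all genes were called higher and 7.60% lower, 0 of 9 members passed, while 2 had an unadjusted p under 0.05 (DESeq2 called 0). In nTG females, where 0.148% of all genes (25) were called, 1 member passed, and it was Adcy5.

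Adcy5 in nTG females was at 167, 181 and 201 CPM in sedentary mice and 188, 222 and 244 CPM in trained mice (lowest, median, highest). All but 1 of the 10 trained females lay above every sedentary female. These same 10 libraries are the controls of the Adcy5 genotype call in trained females, so the calls are not independent. Mean levels were 220.3 CPM in trained nTG, 182.1 CPM in sedentary nTG and 176.6 CPM in trained TG females. Adcy5 was 21.0% higher after training (log2 fold change 0.27 ± 0.06, adjusted p = 0.0411). With single libraries left out the difference was 0.25 to 0.30, and the adjusted p rose above 0.05 in 12 of 18 such fits, with a highest value of 0.187 without replicate 3 of sedentary nTG females. The libraries concerned were replicates 1, 2, 3, 4, 5 and 7 of sedentary nTG females and replicates 1, 3, 5, 6, 8 and 10 of trained nTG females. The number of genes called in that comparison ran from 0 to 62 over the same fits. The call was also lost with RLE size factors (log2 fold change 0.27, adjusted p = 0.0558), among genes with a mean of at least 50 counts (0.26, adjusted p = 0.0626), with the replicate number as a block (0.27, adjusted p = 0.0828) and with only the 2 groups fitted (0.27, adjusted p = 0.134). The unadjusted p of the last fit was 1.589e-05, against 3.298e-05 with all 8 groups. Over the same 2 groups the summed cardiomyocyte markers were 57010 to 67640 CPM (median 61470) in sedentary and 60890 to 69810 CPM (median 65700) in trained mice, the fibroblast markers 863 to 1464 CPM (median 953) and 726 to 978 CPM (median 805), and the macrophage markers 170 to 258 CPM (median 187) and 152 to 212 CPM (median 181). No marker of these 3 lists passed the test there (0 of 7 in each), and their part in the Adcy5 difference was not tested. In nTG males Adcy5 differed by 0.03 ± 0.07 after training, in TG males by -0.0011 ± 0.063 and in TG females by 0.02 ± 0.07.

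Of the other members, 7 had log2 fold changes above 0 in trained nTG females that did not pass the test. Adcy6 was at 259, 293 and 341 CPM in sedentary and 282, 339 and 372 CPM in trained mice (0.17 ± 0.05, adjusted p = 0.147), and DESeq2 called it (adjusted p = 0.0478), beside 95 of the 4125 genes to which it gave an adjusted p (2.3%). Pde3a differed by 0.19 ± 0.07 (adjusted p = 0.188), Adrb1 by 0.16 ± 0.09 (0.404), Pde4d by 0.13 ± 0.06 (0.305) and Adra1b by 0.13 ± 0.09 (0.497). For these 5 genes between 0 and 5 of the 10 trained libraries lay above all sedentary ones, so the groups overlapped widely. The median over the 9 genes was 0.16 and over all genes -0.0019.

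In TG males the member with the smallest p for training was Pde3a. It was at 132, 142 and 171 CPM in sedentary and 138, 170 and 187 CPM in trained TG males, and 4 of 8 trained libraries lay above all sedentary ones. The log2 fold change was 0.18 ± 0.07 (adjusted p = 0.0558). Adcy6 had the next smallest p, with 246, 262 and 308 CPM against 237, 292 and 342 CPM (0.13 ± 0.05, adjusted p = 0.0831). Pde3a passed among genes with a mean of at least 50 counts (adjusted p = 0.0461, beside 24.8% of genes called) and with only the 2 groups fitted (adjusted p = 0.0474, beside 16.6%). It also passed without replicate 4 or 5 of trained TG males (adjusted p = 0.0221 and 0.0460) or replicate 7 or 8 of sedentary TG males (0.0309 and 0.0277), and Adcy6 passed without replicate 4 of trained (0.0200) or replicate 8 of sedentary TG males (0.0324). Blood markers were lower in trained TG males, 6 of 6 (median -1.47), with 291 to 4626 CPM in sedentary and 260 to 555 CPM in trained libraries, and the highest value was replicate 5 of sedentary TG males. Without that library 3 of 6 blood markers were lower (median -0.65), Pde3a differed by 0.16 (adjusted p = 0.112) and Adcy6 by 0.12 (adjusted p = 0.132). Macrophage markers (4 of 7) and fibroblast markers (2 of 7) were lower as well. Cardiomyocyte markers were higher in 2 of 7 and lower in none, with summed levels of 52100 to 61570 CPM (median 54660) in sedentary and 48470 to 64190 CPM (median 60800) in trained TG males. With single libraries left out, 3 to 5 macrophage and 1 to 5 fibroblast markers were lower, and 1 to 4 cardiomyocyte markers were higher. The part of these cell types in the differences of Pde3a and Adcy6 was not tested.

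**Figure D3:**
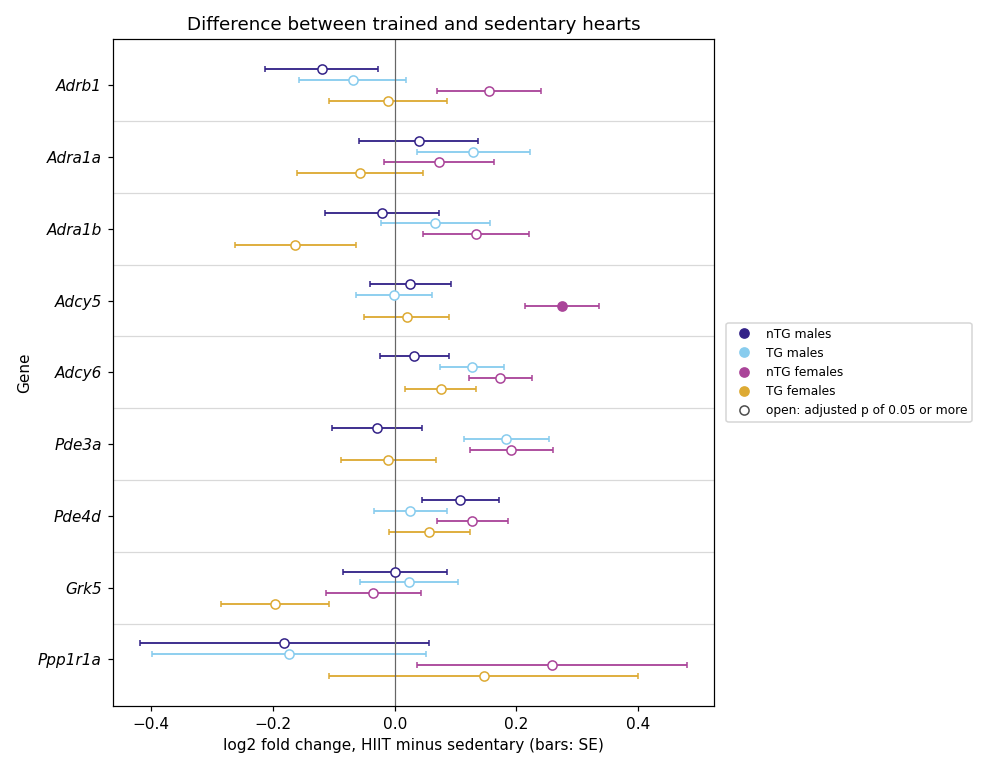
Log2 fold change between trained and sedentary hearts (horizontal axis, HIIT minus sedentary, bars are SE) for the 9 genes in nTG and TG mice of each sex. Filled points passed an adjusted p under 0.05. Adcy5 in nTG females, at 0.27, is the filled point, and Pde3a in TG males is open at 0.18.

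Whether the genotype difference depended on training or sex was tested with interaction terms. No member passed any of the 7 terms fitted (edgeR; also 0 with DESeq2), and none of the 16913 genes did in edgeR (0.00% in each; 910 to 3063 genes at an unadjusted p under 0.05, and 0 to 166 genes called by DESeq2). At an unadjusted p under 0.05, the genotype by training term gave Pde3a in males (0.21 ± 0.10, p = 0.0403, adjusted p = 0.316) and Adcy5 (-0.26 ± 0.09, p = 0.00775) and Adra1b (-0.30 ± 0.13, p = 0.0278) in females, both with an adjusted p of 0.751. Averaged over the sexes it gave Adcy5 (-0.14 ± 0.07, p = 0.0344, adjusted p = 0.434). The genotype by sex term gave Adra1b in sedentary mice (0.27 ± 0.13, p = 0.0400, adjusted p = 0.554) and Pde3a in trained mice (-0.24 ± 0.10, p = 0.0220, adjusted p = 0.895). The training by sex term in nTG mice gave Adcy5 (0.25 ± 0.09, p = 0.00766, adjusted p = 0.742), Adrb1 (0.28 ± 0.13, p = 0.0325) and Pde3a (0.22 ± 0.10, p = 0.0320), the last 2 with an adjusted p of 0.754, and in TG mice no member. The strata in which a member was called are therefore not shown to differ from those in which it was not.

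Averaged over the sexes, training gave no called member in nTG mice (all genes 0.384%) or in TG mice (all genes 0.520%) by edgeR. DESeq2 called no member either, beside 0.871% and 3.46% of the genes it tested, and with the replicate number as a block edgeR called none, beside 0.248% and 1.06%. In nTG mice 3 members had an unadjusted p under 0.05: Adcy5 (0.15 ± 0.05, adjusted p = 0.111), Adcy6 (0.10 ± 0.04, adjusted p = 0.210) and Pde4d (0.12 ± 0.04, adjusted p = 0.207). In TG mice the only member with such a p was Adcy6 (0.10 ± 0.04, adjusted p = 0.153).

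Between sedentary nTG females and males, 2.22% of all genes were called and 0 of 9 members (edgeR; 2 members at an unadjusted p under 0.05). Grk5 was at 69.3, 80.3 and 95.3 CPM in females and 53.3, 66.1 and 84.4 CPM in males, and 3 of 8 females lay above all males (log2 fold change, female minus male, 0.27 ± 0.09, adjusted p = 0.0771). DESeq2 called it (adjusted p = 0.0454), beside 3.42% of the 15273 genes to which it gave an adjusted p, and edgeR did without replicate 4 of sedentary nTG males (adjusted p = 0.0262). Adra1a was at 40.5, 45 and 51.4 CPM in females and 50.7, 53.6 and 59.6 CPM in males, with 7 of 8 females below every male (-0.27 ± 0.10, adjusted p = 0.140). It passed with only these 2 groups fitted (adjusted p = 0.0387), beside 0.858% of all genes in that fit.

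The same pathway was followed through 89 other tested genes, listed by role. Averaged over the strata, 15 of the 89 were higher and 29 lower in TG hearts, with a median log2 fold change of -0.02 against 0.01 for all genes. In sedentary males 9 were higher (10.1%, all genes 9.39%) and 17 lower (19.1%, all genes 11.2%), and in trained males 6 were higher (6.74%, all genes 5.65%) and 8 lower (8.99%, all genes 8.31%). In sedentary females 1 was higher (1.12%, all genes 1.58%) and 6 lower (6.74%, all genes 2.78%), and in trained females 6 were higher (6.74%, all genes 5.37%) and 18 lower (20.2%, all genes 9.43%). The 29 lower genes are 32.6% of the 89 and the 15 higher ones 16.9%, beside 20.5% lower and 18.5% higher over all genes, and most roles held calls in both directions.

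Of 7 adrenergic receptor genes tested, 5 were lower and none higher in the average over strata (median -0.24). Besides Adra1a, Adra1b and Adrb1 these were Adra1d (-0.28 ± 0.06, adjusted p = 0.000329) and Adra2b (-0.24 ± 0.10, adjusted p = 0.0373). These, and the other pathway genes named below that are not among the 5 higher and 5 lower with the smallest p (3 and 3 for training in TG males), were named after their values were seen. Adra2c, an alpha-2 receptor, was at 0.05 ± 0.08 (adjusted p = 0.701). Among 11 G proteins and their regulators 5 were lower, Rgs2 (-0.44 ± 0.08), Rgs6 (-0.34 ± 0.06), Gnas (-0.07 ± 0.02), Rgs3 (-0.06 ± 0.02) and Gna11 (-0.04 ± 0.02), and Gnai3 was higher (0.14 ± 0.03). Gnas encodes the stimulatory G protein and Gnai3 an inhibitory one, while the Rgs proteins shorten G protein signals.

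The 9 adenylyl cyclase genes split, with 3 lower (Adcy5, Adcy9 and Adcy6) and 3 higher. Adcy1 rose by 0.66 ± 0.11 on the log2 scale (adjusted p = 8.25e-07), Adcy7 by 0.35 ± 0.06 and Adcy8 by 0.21 ± 0.08, and Adcy9 was at -0.11 ± 0.02. The 18 phosphodiesterase genes split too, with 7 lower and 3 higher. Pde4a, of the cAMP-specific family, was lowest (-0.32 ± 0.03, adjusted p = 8.92e-14). The higher genes were Pde3b (0.39 ± 0.05, adjusted p = 7.39e-09), Pde1a (0.31 ± 0.05, adjusted p = 3.54e-07), a calcium-activated enzyme, and Pde10a (0.13 ± 0.05). Pde3a and its paralog Pde3b thus moved in opposite directions in bulk RNA of these hearts. Fibroblast and macrophage markers were higher in TG hearts as well. The part of cell types in the differences of the wider pathway genes was not tested.

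Downstream of cAMP, 7 of 8 PKA targets of the heart muscle cell were lower and none higher (median -0.19). Over all genes 20.5% were lower and 18.5% higher. The lowest p among them was that of Mybpc3, cardiac myosin-binding protein C (-0.23 ± 0.03, adjusted p = 1.37e-10), and the target that was not called was the calcium release channel gene Ryr2 (-0.04 ± 0.03, adjusted p = 0.318). Pln, Ryr2 and Tnni3 of this list are also among the cardiomyocyte markers above, most of which were lower in TG hearts too. PKA acts on the products of its target genes by phosphorylation, which RNA levels do not measure. The part of cell type in the differences of these targets was not tested. Popdc2, a cAMP-binding membrane protein, had the smallest p of the pathway genes (-0.40 ± 0.03, adjusted p = 2.51e-16), and of 5 other cAMP effectors 3 were lower (Popdc2, Rapgef4, Bves) and 1 higher (Popdc3). Of 9 PKA subunit and inhibitor genes, Prkaca (-0.18 ± 0.02), the main catalytic subunit, Pkia and Pkig were lower, and the regulatory subunit gene Prkar2b (0.45 ± 0.11) and Pkib were higher. Of 10 anchoring proteins, Akap1 and Akap7 were lower, and Akap13 (0.16 ± 0.02, adjusted p = 2.99e-09) and Akap12 were higher.

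Among 7 receptor kinases and arrestins 2 were higher and none lower: Arrb2, beta-arrestin 2 (0.31 ± 0.05, adjusted p = 1.07e-06), and Grk4 (0.30 ± 0.08, adjusted p = 0.00116). Grk2, the other main receptor kinase of the heart, was at -0.03 ± 0.02 (adjusted p = 0.358). Of 7 genes of protein phosphatase 1 and its inhibitors, Ppp1ca was lower (-0.06 ± 0.02, adjusted p = 0.0166) and none higher. Of 7 CREB family genes and coactivators, Creb1 was higher (0.09 ± 0.03, adjusted p = 0.0291) and none lower.

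**Figure D4:**
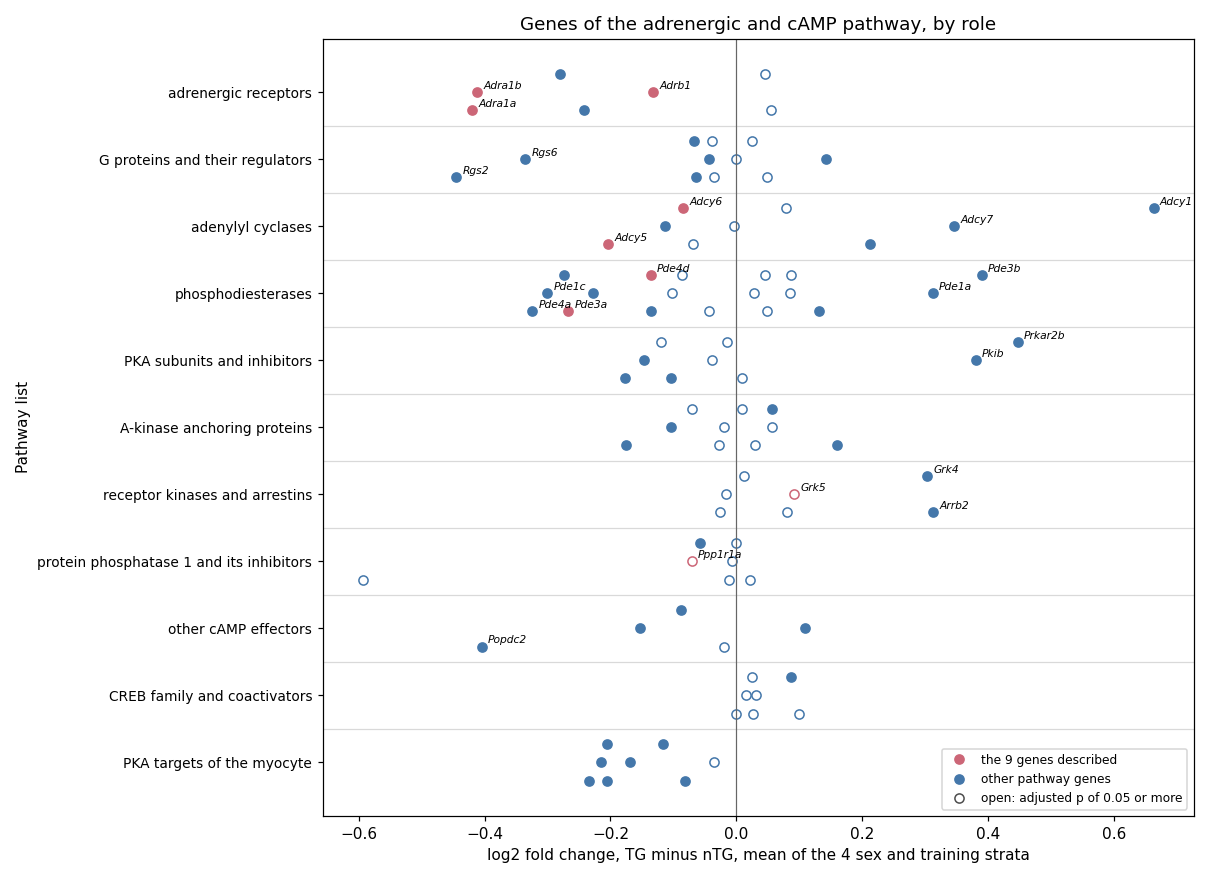
Log2 fold change between TG and nTG hearts, averaged over the 4 sex and training strata (horizontal axis), for 98 tested genes of the pathway grouped by role (rows). Filled points passed an adjusted p under 0.05, and red points are the 9 genes described. Adrenergic receptors and PKA targets lie mostly left of 0, while cyclases and phosphodiesterases lie on both sides, from Pde4a at -0.32 to Adcy1 at 0.66.

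With training, none of the 89 other pathway genes passed in nTG males, nTG females or TG females (edgeR; 5, 13 and 6 at an unadjusted p under 0.05, and 0, 1 and 0 by DESeq2). In TG males 13 were higher (14.6%) and 11 lower (12.4%), beside 10.3% higher and 7.60% lower over all genes. By smallest p the higher genes were Pkia, a PKA inhibitor (0.30 ± 0.06, adjusted p = 0.00160), Ppp1r3a, a glycogen-targeting subunit of protein phosphatase 1 (0.37 ± 0.08, adjusted p = 0.00176), and Ppp1cb, a catalytic subunit of that phosphatase (0.31 ± 0.07, adjusted p = 0.00231). The lower genes were Gnai2, an inhibitory G protein (-0.19 ± 0.04, adjusted p = 0.00334), Crtc2, a CREB coactivator (-0.30 ± 0.07, adjusted p = 0.00428), and Adcy3 (-0.27 ± 0.07, adjusted p = 0.00594). All 3 called genes of the phosphatase list were higher in that comparison (Ppp1r3a, Ppp1cb and Ppp1cc), and of 4 called CREB genes Creb1 was higher and Crtc1, Crtc2 and Crtc3 lower.

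Across the 8 group means the genes other than Ppp1r1a followed each other to different degrees. Adra1b and Pde3a had a Pearson r of 0.93, Adcy5 and Adrb1 0.90, and Adcy5 and Adcy6 0.90, whereas Adra1a and Adcy6 had 0.26. Grk5 ran against Adra1a (r = -0.70). Such values were common: of 12143 named genes with a mean of at least 50 counts, 654 reached an r of 0.9 with Adra1a, 398 with Adra1b and 376 with Pde4d. With Pde3a 304 did, with Adcy5 86, with Adrb1 81, with Grk5 49 and with Adcy6 37. Those most like Adra1a were Tti1 (r = 0.992), Limch1 and Tnnc1 (0.989 each). Closest to Adra1b were Slc22a5 (0.990), Ano10 and Scd4, closest to Adcy5 Pex6 (0.991), Eif4ebp2 and Tmem94, and closest to Pde3a Wfikkn2 (0.993), Fgf13 and Card6. Closest to Pde4d were Gys1 (0.993), Khdrbs3 and Abcb6, closest to Adrb1 Rmdn3 (0.980), Carns1 and Rnaseh2a, closest to Adcy6 Stk39 (0.965), Noct and Foxo3, and closest to Grk5 Scrn1 (0.991), Tmem98 and Enpp1. Ppp1r1a was below the count minimum and was not compared. These are descriptions over 8 points made from shared libraries, and no p is attached to them.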

How the data were processed

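RNA of 64 mouse hearts was sequenced after ribosomal depletion. The authors deposited whole-number gene counts per Ensembl gene and a table of estimated counts per long non-coding RNA, not normalized. Per the submitters' processing notes, which give no roles, the tools were cutadapt 2.3, FastQC 0.11.8, MultiQC 1.7, STAR 2.7.8a and RSEM 1.3.3, with the build GRCm38 (mm10). Strand setting and annotation are not given in the sources used here. Symbols, positions and exon lengths came from GENCODE M21 (16879 of 16913 identifiers matched).

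Gene columns were joined to libraries by Pearson's r of centred log2 CPM (pseudocount 0.5) over 389 autosomal transcripts with a mean of at least 20 counts in both tables. Estimated counts were used only for this join. The same 64 pairs resulted from either of 2 disjoint subsets of 194 and 195 transcripts and at a minimum mean of 50. No 2 columns were identical, and no 2 libraries of a group agreed within counting noise (229 pairs).

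Counts were tested with edgeR 4.0.16 (R 4.3.3; TMM, quasi-likelihood F test, 1 model with 8 group means), with Benjamini-Hochberg adjustment over all 16913 genes and a threshold of 0.05. The low-count filter removed no gene, because the deposited table already lacks rarely counted ones. CPM use TMM-scaled totals. The code was tested on simulated counts. Alternatives were RLE size factors, a mean of at least 50 counts, the replicate number as a block, only the groups compared, DESeq2 1.42.0, leaving out each library, and columns by name. The 9 genes, the lists and the naming rule were chosen with earlier results of these data known, and the GC box search was added last. Named were all 9 genes; of the wider lists the 5 higher and 5 lower genes with the smallest p in the genotype average and the 3 and 3 in training of TG males; for each member the 3 genes most alike over group means. Other wider-list genes were named after their values were seen, to fill out roles. Adrb3, Adra2a, Adcy10 and Ppp1r1c were also on the lists, but no row of the gene table carried these symbols, so they were not tested.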

Additional observations from a re-analysis of the deposited data

Results flagged for a closer look

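Each of the 9 genes was checked in each of the 8 groups for a library whose gap to its nearest neighbour was large against the range of its group (Dixon's criterion at 95%). Of 72 sets of values 3 met it, and about 1 in 20, or 3.6, would by chance. Adcy5 in replicate 6 of sedentary nTG males was at 138.6 CPM, below the other 6 libraries of its group at 173.0 to 198.3 CPM; without it the genotype difference in sedentary males was -0.25 (adjusted p = 0.00327) in place of -0.20. Adcy5 in replicate 4 of sedentary TG females was at 244.2 CPM, above the other 7 at 135.1 to 175.8 CPM. Adcy6 was high in that same library, at 317.4 CPM against 276.6 to 292.3 CPM. Without it the genotype differences in sedentary females were -0.15 for Adcy5 (adjusted p = 0.133) and -0.06 for Adcy6 (adjusted p = 0.700), in place of -0.06 and -0.04, and no call changed.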

How the results depend on the processing

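The choice that mattered most was the assignment of gene columns. Read by name, 0 members were called in each of the 4 genotype strata, in their average and in the training of nTG females, but 1 (Pde3a) was in nTG males (all genes 0.78%) and 5 (Adra1a, Adra1b, Adcy5, Adcy6, Pde3a) in the average training effect of nTG mice (all genes 14.2%). Among the member differences that passed with joined columns, signs turned by name for Adra1a in trained males (0.33), trained females (0.10) and the average (0.0801), for Adra1b (0.18) and Adcy5 (0.0332) in trained males, for Pde4d in the average (0.0026) and for Adcy5 in trained nTG females (-0.19). Some that had not passed turned too, Grk5 in each stratum and the average (-0.04) among them. With joined columns, RLE factors, a mean of at least 50 counts, the replicate block, only the groups compared and DESeq2 kept each genotype count of members within 1.5 times. Other counts moved: training in TG males gave 1 at the minimum mean of 50 and with 2 groups only; training in nTG females gave 0 with RLE, a mean of at least 50, the replicate block (Adcy5 0.27, adjusted p = 0.0828) or 2 groups only, and 2 with DESeq2; sex gave 1 with 2 groups only and with DESeq2. Over all genes, training in nTG females gave 25 calls, 13 with RLE, 11 at the minimum mean, 3 with the block, 0 with 2 groups (2338 at an unadjusted p under 0.05) and 95 of 4125 with DESeq2; sex gave 375, 145 with 2 groups and 522 of 15273 with DESeq2. Leaving out single libraries gave 3 to 5 members in sedentary males, 3 to 4 in trained males, 1 to 2 in sedentary females, 4 to 5 in trained females, 7 to 8 in the average, 0 to 2 for training in TG males, 0 to 1 in nTG females, 0 to 1 for sex and 0 to 0 elsewhere. The number of genes called in sedentary females was 739, and 367 with 2 groups only. Replicate numbers did not pair libraries: same-numbered libraries of different groups had a mean r of 0.0125 (-0.243 to 0.270 over 205 pairs), other numbers -0.0016, and 10 of 64 libraries correlated best with their own number. The block changed no other member's call. Depth was lowest for Ppp1r1a, at 8 to 47 counts per library.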
